A study of Mus musculus with 14 samples.

Results

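The genes examined encode the membrane traffic machinery of a secretory cell: Rab GTPases and proteins named after them, synaptotagmins, syntaxins with their binding proteins, vesicle-associated membrane proteins (VAMPs) and the SNAP family. The members were all probes of the array whose single gene symbol begins with Rab, Syt, Stx, Stxbp, Vamp or Snap followed by a number, with symbols updated through the Entrez identifier. They came to 109 probes for 103 genes, of 23232 probes on the array and 15099 singly named genes. The rule uses gene names only, though the group was proposed with earlier results of these data known. All 109 probes had values on all 14 arrays and were tested.

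RNA was compared in lines derived from MIN6, insulin-secreting cells of mouse pancreatic beta-cell origin, obtained at passage 24. Sir2OE1 (3 arrays) and Sir2OE2 (4 arrays) were infected with the pBabe-Sirt1 retrovirus, which carries mouse Sirt1 and a neomycin resistance gene, and were kept under G418 selection at 280 micrograms per ml. Each was hybridised against pooled RNA of Neo1 and Neo2, lines that received the pBabe-neo control virus. Sir2KD1 (3 arrays) and Sir2KD2 (4 arrays) were selected with G418 at 400 micrograms per ml after mU6pro vectors for different siRNAs against Sirt1 had been introduced together with a neomycin resistance plasmid. Each was hybridised against the empty-vector line mU6pro. Before RNA was purified, all lines spent 4 days at 5 mM glucose. Sirt1 is a NAD-dependent protein deacetylase. Each perturbation rests on a pair of independently made stable lines, and the arrays of a line are not described as separate cultures, so a p-value here weighs only the variation from array to array, part of which may be technical. Each ratio was tested against 0, so that variation among control lines does not enter.

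Insulin is stored in dense granules that move to the plasma membrane, dock there and fuse when calcium rises. Rab GTPases mark membranes and recruit effectors: the Rab3 and Rab27 proteins sit on secretory granules, Rab5 and Rab7 on early and late endosomes, Rab1 and Rab6 on the ER and Golgi. Fusion is driven by SNAREs, in which a VAMP on the vesicle zips up with a syntaxin and a SNAP-25 family protein on the target membrane. Synaptotagmins lend calcium sensing to this step, and syntaxin-binding proteins promote or restrain assembly of the complex.

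Promoters are shown for 3 of the 4 members that passed the test in both lines of one kind, Rab3a, Rab43 and Rab33b. The other, Syt5, had no entry in the promoter table. The sequences are the 250 bases before the first start listed for each gene by RefSeq, on mouse build GRCm38.p6, written 5′ to 3′ on the strand of the gene. Of the 103 member genes, 84 had an entry. Capitals mark matches, on either strand, to the GC box GGGCGG, the box named CCAAT, the E-box CACGTG, the core TGACG of the cAMP response element or the TATA box TATAAA. Rab3a lies on the plus strand at chr8:70754453-70754702 and had 2 starts listed, Rab43 on the minus strand at chr6:87812165-87812414 with 4 starts, and Rab33b on the plus strand at chr3:51483716-51483965 with 1 start.
Rab3a: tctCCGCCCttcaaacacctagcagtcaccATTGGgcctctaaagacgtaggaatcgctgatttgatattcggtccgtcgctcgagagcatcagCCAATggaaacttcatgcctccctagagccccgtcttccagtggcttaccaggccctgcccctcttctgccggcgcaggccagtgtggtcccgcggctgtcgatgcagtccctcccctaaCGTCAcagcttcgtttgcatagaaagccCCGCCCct
Rab43: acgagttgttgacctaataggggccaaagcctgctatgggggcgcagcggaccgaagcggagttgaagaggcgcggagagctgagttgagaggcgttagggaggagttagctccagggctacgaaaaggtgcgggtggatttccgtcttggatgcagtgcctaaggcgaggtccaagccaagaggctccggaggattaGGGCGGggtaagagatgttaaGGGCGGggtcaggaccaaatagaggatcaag
Rab33b: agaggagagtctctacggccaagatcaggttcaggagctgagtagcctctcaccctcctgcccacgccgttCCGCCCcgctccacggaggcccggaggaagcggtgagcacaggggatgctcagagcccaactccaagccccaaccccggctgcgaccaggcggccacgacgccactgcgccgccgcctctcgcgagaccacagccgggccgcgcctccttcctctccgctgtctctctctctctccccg

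The Rab3a window held 2 GC boxes, 2 CCAAT boxes and 1 match to TGACG. The Rab43 window held 2 GC boxes and the Rab33b window 1. The GC box was found upstream of 56 of the 84 member genes (66.7%) and in 32.7% of the 32851 RefSeq promoter windows of the same length. Members were counted with 1 window per gene, whereas the 32851 windows take in every start listed for any gene. The sets are therefore unlike, and the shares here are not a test of the members. TGACG was found in 40.5% of the members' windows against 17.8% of all windows, CACGTG in 14.3% against 6.02%, CCAAT in 38.1% against 33.8% and TATAAA in 5.95% against 12.4%. Of the 10 members with a window that passed the test in at least 1 line, 7 held a GC box, 4 TGACG, 3 CCAAT, 1 TATAAA and 0 CACGTG. These are matches of letters and say nothing about the binding of a factor.

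The values are log2 ratios of the channels of an array. Channel assignment was exchanged between arrays of every line. The sources used here do not say in which direction the authors formed the ratio. Channel 2 was read as the numerator and channel 1 as the denominator, and the sign was turned on arrays with the line in channel 1. A value is therefore given as on the plus side or the minus side of this turned ratio, and plus means line above control only if that reading holds. Over all probes, arrays of the same line with opposite channels had a mean correlation of 0.281 after the turn and −0.281 before it (12 pairs), while arrays with the same channel had 0.125 (6 pairs). Over the 109 members the same means were 0.354 after the turn and 0.324. The authors' values had been centred per probe so that they sum to 0 over 6 of the 7 arrays of each kind, and those 6 arrays held each orientation 3 times. That centring alone gives the turned values of either orientation the same total over those arrays. The correlations above therefore cannot show which reading of the ratio holds. Under the other reading, in which the values already are line over control, the centring would have removed the mean of the lines. Probes called then numbered 0 in Sir2OE1, 0 in Sir2OE2, 15 in Sir2KD1 and 0 in Sir2KD2, and none of the member calls described here was made. All calls below depend on the turn.

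A fitted value is the mean turned ratio of a line after allowing for a channel offset in each kind of perturbation. A probe was called when limma's moderated test gave a Benjamini-Hochberg adjusted p of at most 0.05 over the 23230 probes tested. The targeted gene gave no check of the labels, since the Sirt1 probe had fitted values of 0.08 in Sir2OE1, −0.33 in Sir2OE2, −0.10 in Sir2KD1 and 0.12 in Sir2KD2, with adjusted p of 0.933, 0.131, 0.772 and 0.651. Sirt1 was minus on all 4 Sir2OE2 arrays and plus on all 4 Sir2KD2 arrays, opposite to the names of these lines under the reading used. It was plus on 2 and minus on 1 of the Sir2OE1 arrays, and plus on 1 and minus on 2 of the Sir2KD1 arrays. Ratios hold no level, so the beta-cell identity of the lines could not be read from them. Of the 16 probes for 15 beta-cell genes, 2 were called plus and 1 minus in Sir2OE1, 1 plus and 2 minus in Sir2OE2, 1 plus and 5 minus in Sir2KD1, and 2 plus and 2 minus in Sir2KD2. Chga, G6pc2, Iapp and Ins2 carried nearly the same set of ratios as many other probes in the overexpression arrays. Chga, Chgb and Iapp did so in the knockdown arrays. These uncalled values are thus not particular to their genes. Slc2a2, the beta-cell glucose transporter, was minus in all 4 lines (−0.90, −1.50, −2.08 and −0.89). Pcsk1, a proinsulin convertase, was plus in Sir2OE1, Sir2OE2 and Sir2KD2 (0.78, 0.78 and 0.76). Isl1, an islet transcription factor, was plus in Sir2OE1 (0.70) and minus in Sir2KD1 (−0.78) and Sir2KD2 (−0.59). Pdx1 (−0.77), Nkx2-2 (−0.92) and Neurod1 (−0.47) were also minus in Sir2KD1, and Neurod1 was minus in Sir2OE2 (−0.50). Ucn3 encodes a peptide that mature beta cells release; its probe 19772 was plus in both knockdown lines (2.86 and 2.62) and probe 4310 was not called (−0.95 and −0.40). Of 6 neuronal genes, Uchl1 was on the plus side in all 4 lines (2.45, 3.18, 1.26 and 1.81) and Stmn2 in Sir2OE2, Sir2KD1 and Sir2KD2 (2.32, 1.77 and 1.10). The others, Tubb3, Nefl, Nefm and Map2, were called in no line. Their fitted values ran from −0.47 (Nefl in Sir2OE1) to 0.21 (Nefm in Sir2KD1). None of the 6 probes for other islet cells or the 5 for mesenchyme and immune cells was called in a line. Of 6 probes for exocrine and duct cells, both overexpressing lines had Krt19 and Epcam on the minus side, and both knockdown lines had Krt7 on the plus side. Epcam was also minus in Sir2KD1 (−2.18), as was Prss1 (−0.75). The part of these markers in the results below was not tested.

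Most of the traffic machinery did not pass the test. Of the 109 member probes, 97 were called in no line and 12 in at least 1 line. A call in at least 1 line was made for 6.4% of all probes and for 7.34% of the probes with 1 gene symbol. Of the 109, 6 were called in at least 2 lines, where 1.77% of all probes were, and 0 in all 4. In Sir2OE1, 1 member was plus and 1 minus, with 1.06% of all probes called (0.469% plus, 0.594% minus). In Sir2OE2, 4 were plus and 5 minus, with 2.81% of all probes called (1.43% plus, 1.38% minus). In Sir2KD1, 3 were plus and 3 minus, with 3.59% called (1.6% plus, 1.98% minus). In Sir2KD2, 0 were plus and 2 minus, with 1.34% called (0.603% plus, 0.74% minus). The members' own shares were 1.83%, 8.26%, 5.5% and 1.83% in the same order of lines, and those of Sir2OE1 and Sir2KD2 rest on 2 probes each. Without the 2 arrays outside the centring sums, Sir2OE1 slide 2 and Sir2KD1 slide 2, the counts were 0, 7, 1 and 0. With arrays centred and scaled they were 3, 12, 2 and 1. The shares of all probes called under these settings are not given here.

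The medians of the members lay close to 0. The median fitted value was −0.02 in Sir2OE1, 0.03 in Sir2OE2, 0.01 in Sir2KD1 and 0.01 in Sir2KD2. Their median absolute value was 0.195, 0.171, 0.185 and 0.145 in the same order, where all probes had 0.179, 0.165, 0.226 and 0.18. Every array of a line lay on one side of 0 for 40 member probes in Sir2OE1 (31.9% of all probes did so), 43 in Sir2OE2 (29.4%), 48 in Sir2KD1 (38.1%) and 37 in Sir2KD2 (26.8%). The lines of a kind were called on the same side for Rab3a (plus) and Rab43 (minus) in the overexpressing lines, where 0.194% and 0.357% of all probes were called in both, and for Syt5 and Rab33b (both minus) in the knockdown lines, where 0.413% were. With arrays centred and scaled, 0 members were called in both knockdown lines. Without both arrays outside the centring sums, or with the slide number as a replicate block, 0 were called in both lines of either kind. Without any 1 array of an overexpressing line, 0 were called in both overexpressing lines. In both knockdown lines 0 were called without any 1 Sir2KD2 array, Sir2KD1 slide 1, Sir2OE1 slide 2 or Sir2OE2 slide 1, 2 or 3. No member was called on the plus side in both knockdown lines (0.245% of all probes), and none had calls of opposite sign within a kind (0.0474%).

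**Figure D1:**
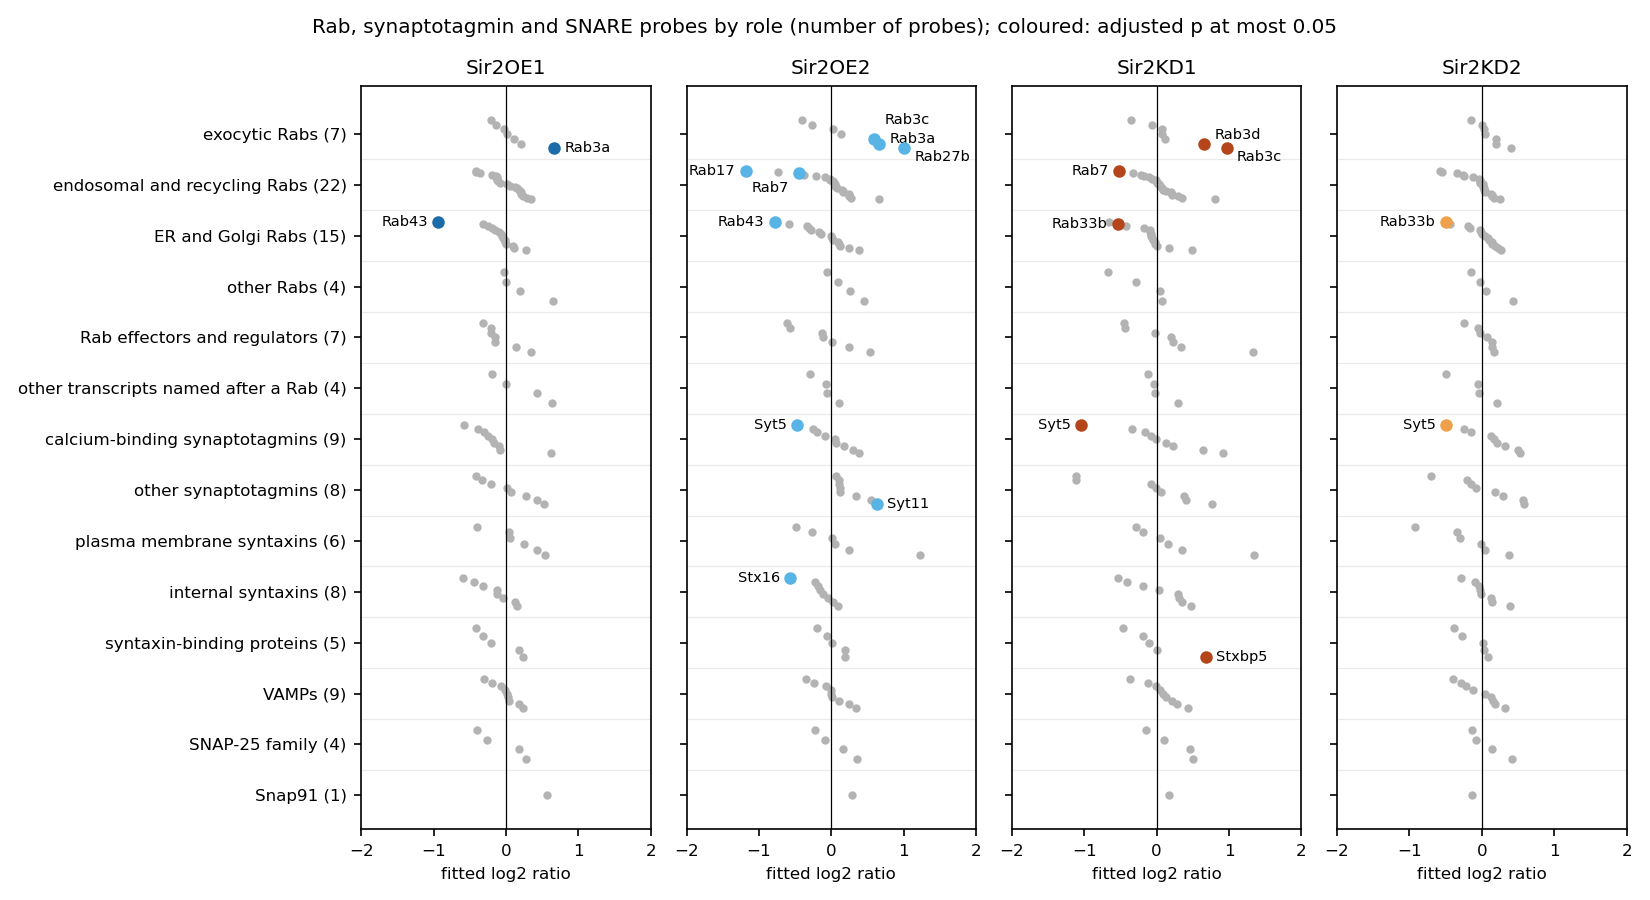
Fitted log2 ratio (x axis, turned so that plus is line over control if channel 2 is on top) of the 109 member probes in each of the 4 lines, by role (y axis, number of probes in brackets). Each point is a probe; coloured and named points have an adjusted p of at most 0.05. Most probes lie near 0, and the exocytic Rabs that were called all lie to the right.

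Of the 7 exocytic Rab probes, 1 was called in Sir2OE1, 3 in Sir2OE2, 2 in Sir2KD1 and 0 in Sir2KD2, all on the plus side. Of all probes, 1.06%, 2.81%, 3.59% and 1.34% were called in the same order of lines. The list of exocytic Rabs is short and was chosen with earlier results of these data known. Each of its calls was lost in at least 1 of the fits that left out an array. Rab3a, Rab3c, Rab3d and Rab27b were called in at least 1 line. Rab3b, Rab27a and Rab37 were not.

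Rab3a, a granule Rab that cycles on and off the membrane with each round of release, had turned log2 ratios of 0.64, 0.88 and 0.51 on the Sir2OE1 arrays and 0.60, 0.66, 0.55 and 0.83 on the Sir2OE2 arrays. It had −0.14, 0.09 and 0.27 on the Sir2KD1 arrays and −0.14, 0.04, −0.25 and −0.25 on the Sir2KD2 arrays. All 7 overexpression arrays lay above all 7 knockdown arrays. The share of all probes whose arrays separate in such a way was not counted, here or for the members below. Calls and separation come from the same arrays, so the separation is no further support for a call. The kinds also had different controls. The fitted value was 0.67 ± 0.13 (SE, n = 3 arrays; a 1.59-fold ratio; adjusted p = 0.045) in Sir2OE1 and 0.66 ± 0.11 (SE, n = 4; 1.58-fold; adjusted p = 0.0091) in Sir2OE2. In the knockdown lines it was 0.07 (adjusted p = 0.858) and −0.15 (adjusted p = 0.632). The Sir2OE1 call was kept only without Sir2KD1 slide 1 of the 14 fits that left out an array, with adjusted p between 0.0451 and 0.27, and the Sir2OE2 call was lost without Sir2OE2 slide 2 or slide 4 (adjusted p up to 0.0671).

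Rab3c, a close relative found in neurons and endocrine cells, was on the plus side on every one of the 14 arrays. Its ratios were 0.20, 0.08 and 0.31 in Sir2OE1, 0.68, 0.55, 0.35 and 0.77 in Sir2OE2, 1.06, 1.12 and 0.75 in Sir2KD1 and 0.08, 0.57, 0.36 and 0.60 in Sir2KD2. It was called in Sir2OE2 (0.59 ± 0.12 SE, 1.5-fold, adjusted p = 0.0304) and Sir2KD1 (0.97 ± 0.15 SE, 1.96-fold, adjusted p = 0.00523). It was not called in Sir2OE1 (0.20, adjusted p = 0.791) or Sir2KD2 (0.40, adjusted p = 0.177). The Sir2OE2 call was lost without any 1 of slides 1 to 4 of that line (adjusted p up to 0.19) and the Sir2KD1 call without Sir2KD1 slide 1 (adjusted p = 0.0888). Its lines therefore came from both kinds of perturbation.

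Rab3d, the form known from large granules of exocrine and endocrine cells, was called in Sir2KD1 alone of the 4 lines. Its ratios were 0.56, 0.74 and 0.69 there, above every array of the other lines, which ran from −0.11 to 0.38. The fitted value was 0.66 ± 0.13 (SE, 1.58-fold, adjusted p = 0.0191). The call was lost without any 1 of the 3 Sir2KD1 arrays (adjusted p up to 0.0902). In the other lines Rab3d had −0.02, 0.14 and 0.03, and the difference Sir2KD2 minus Sir2KD1 was −0.63 with an adjusted p of 0.154.

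Rab27b, which with Rab27a anchors granules near the membrane through effectors such as granuphilin, had ratios of 0.30, 1.45, 1.05 and 1.24 on the Sir2OE2 arrays. Its fitted value there was 1.01 ± 0.22 (SE, 2.01-fold, adjusted p = 0.033). Slide 1 lay below the other 3 arrays and inside the spread of Sir2OE1, whose arrays read 0.03, 0.62 and −0.51. The call was lost without Sir2OE1 slide 1, Sir2OE2 slide 2, 3 or 4, or Sir2KD1 slide 2 or 3 (adjusted p up to 0.209). Rab27a had −0.15, −0.27, −0.36 and 0.20 in the 4 lines, with no adjusted p below 0.357.

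The other exocytic Rabs gave small values. Rab3b had 0.11, 0.02, 0.12 and −0.00. Rab37 had −0.21, −0.41, 0.07 and 0.04, but its probe, like those of Rab39b and Rab11fip1 (probe 9370), carried the most frequent set of ratios of the overexpression arrays, within 1 percentage point on at least 5 arrays, as 329 probes did. Its value of −0.41 in Sir2OE2 is also that of Chga, G6pc2 and Iapp. Rab37 also carried the corresponding set of the knockdown arrays, which 173 probes had.

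**Figure D2:**
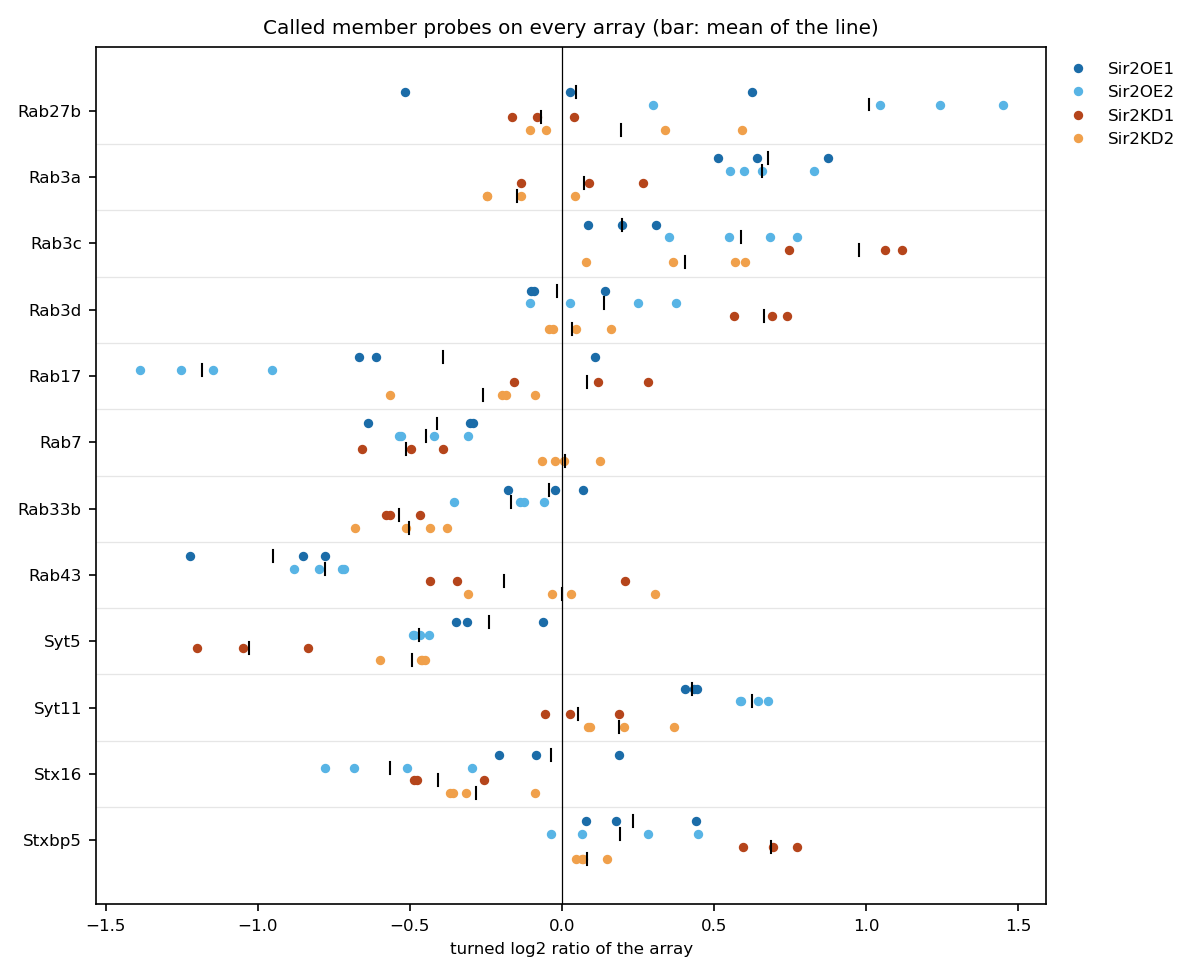
Turned log2 ratio (x axis) of the 12 member probes called in at least 1 line, on each of the 14 arrays; colours are the 4 lines, and the black bar is the mean of a line's arrays. The Rab3a and Rab43 points of both overexpressing lines stand apart from those of the knockdown lines, and Syt5 lies below 0 on all 14 arrays.

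Of the synaptotagmins, Syt5 had the lowest adjusted p among all members. Syt5 is a calcium-binding synaptotagmin of secretory vesicles, and its name and that of Syt9 have been exchanged in part of the literature. Its ratios were −0.31, −0.06 and −0.35 in Sir2OE1, −0.47, −0.49, −0.49 and −0.44 in Sir2OE2, −1.05, −0.84 and −1.20 in Sir2KD1 and −0.60, −0.46, −0.46 and −0.45 in Sir2KD2. All 14 arrays lay on the minus side, and the 3 Sir2KD1 arrays lay below all others. Fitted values were −1.04 ± 0.12 (SE, 2.05-fold, adjusted p = 0.000789) in Sir2KD1, −0.49 ± 0.10 (SE, 1.41-fold, adjusted p = 0.0389) in Sir2KD2, −0.47 ± 0.10 (SE, 1.39-fold, adjusted p = 0.0282) in Sir2OE2 and −0.25 (adjusted p = 0.54) in Sir2OE1.

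The Sir2KD1 call of Syt5 was kept whichever array was left out (highest adjusted p 0.0205). The Sir2OE2 call was lost without any 1 of the 4 Sir2OE2 arrays (adjusted p up to 0.16), and the Sir2KD2 call was kept only without Sir2OE1 slide 3, Sir2KD1 slide 2 or Sir2KD1 slide 3 (adjusted p between 0.0417 and 0.159). The difference Sir2KD2 minus Sir2KD1 was 0.54 and missed the threshold (adjusted p = 0.169).

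Among the other 8 calcium-binding synaptotagmin probes none was called in a line. Syt1, the calcium sensor of fast release in neurons, had −0.09, 0.38, 0.23 and 0.53, with an adjusted p of 0.077 in Sir2KD2. Syt7, a high-affinity sensor in islet cells, had −0.39, −0.20, −0.34 and 0.50. Syt9, a main sensor of granule release in insulin-secreting lines, had −0.17, 0.05, −0.08 and 0.21, with no adjusted p below 0.406.

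Of the 8 probes for synaptotagmins outside that group, only 1 of the Syt11 probes was called, in Sir2OE2. Syt11 lacks the calcium binding of the classical members. Probe 18718 read 0.59, 0.68, 0.59 and 0.64 on the Sir2OE2 arrays and 0.40, 0.43 and 0.44 on the Sir2OE1 arrays, so that these 7 arrays lay above the 7 knockdown arrays, which ran from −0.06 to 0.37. The fitted value in Sir2OE2 was 0.62 ± 0.09 (SE, 1.54-fold, adjusted p = 0.00442) and the call was kept whichever array was left out (highest adjusted p 0.0418). In Sir2OE1 it was 0.43 (adjusted p = 0.14). The other Syt11 probe, 21357, had 0.07, 0.06, −0.01 and −0.15, so the probes of the gene disagree. Syt4 had −0.33, 0.10, −1.12 and −0.20 and Syt13 −0.21, 0.34, 0.40 and 0.30, none of them called.

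The SNAREs themselves gave 1 call in 4 lines. None of the 6 plasma membrane syntaxin probes, the 9 VAMP probes or the 4 SNAP-25 family probes was called in a line. Stx1a, the syntaxin of granule docking sites, had 0.06, 0.25, −0.29 and −0.30. Its binding partner Snap25 had 0.18, 0.16, −0.15 and −0.13, and Vamp2, the main granule VAMP, had 0.02, 0.11, 0.09 and 0.18. The Vamp2 arrays ran from −0.18 to 0.26 over all 4 lines and the Snap25 arrays from −0.18 to 0.45.

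Other SNAREs of fusion at the cell surface were not called in a line either. Stx3, found on insulin granules and at the plasma membrane, had −0.40, −0.49, 0.04 and 0.38. Stx4a, the syntaxin 4 of basolateral membranes, had 0.53, −0.26, −0.18 and −0.02. Vamp3, a VAMP of recycling endosomes, had 0.04, 0.01, 0.21 and 0.04.

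Stx11, a syntaxin best known from granule release in lymphocytes, had the largest absolute fitted values of all members in Sir2OE2 (1.22 ± 0.30 SE, adjusted p = 0.0638) and in Sir2KD1 (1.35 ± 0.35 SE, adjusted p = 0.0683). Its arrays read 1.71, 0.84, 0.76 and 1.56 in Sir2OE2 and 0.79, 2.11 and 1.26 in Sir2KD1. All 7 were on the plus side, but neither value passed the test.

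Stx16, a syntaxin of the trans-Golgi network, was the 1 called member of the 8 internal syntaxin probes. It read −0.78, −0.29, −0.68 and −0.51 on the Sir2OE2 arrays, a fitted value of −0.57 ± 0.12 (SE, 1.48-fold, adjusted p = 0.0268). The call was lost without Sir2OE2 slide 1, 3 or 4 (adjusted p up to 0.201). The knockdown arrays were also all on the minus side, from −0.49 to −0.09, with fitted values of −0.40 (adjusted p = 0.163) and −0.28 (adjusted p = 0.323).

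Of the 5 syntaxin-binding protein probes, 1 of the 2 for Stxbp5 was called. Stxbp5 encodes tomosyn, which occupies syntaxin and restrains complex formation. Probe 20489 read 0.69, 0.77 and 0.59 on the Sir2KD1 arrays, above the other lines, which ran from −0.04 to 0.45. Its fitted value was 0.68 ± 0.13 (SE, 1.61-fold, adjusted p = 0.0175), and the call was lost without Sir2KD1 slide 1 or slide 2 (adjusted p up to 0.139). Probe 2806 of the same gene had −0.19 in Sir2KD1 and was not called. Stxbp2 had −0.42, 0.01, 0.00 and 0.02, and Stxbp3, a partner of syntaxin 4, had 0.17, −0.20, −0.46 and −0.39, none of them called.

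**Figure D3:**
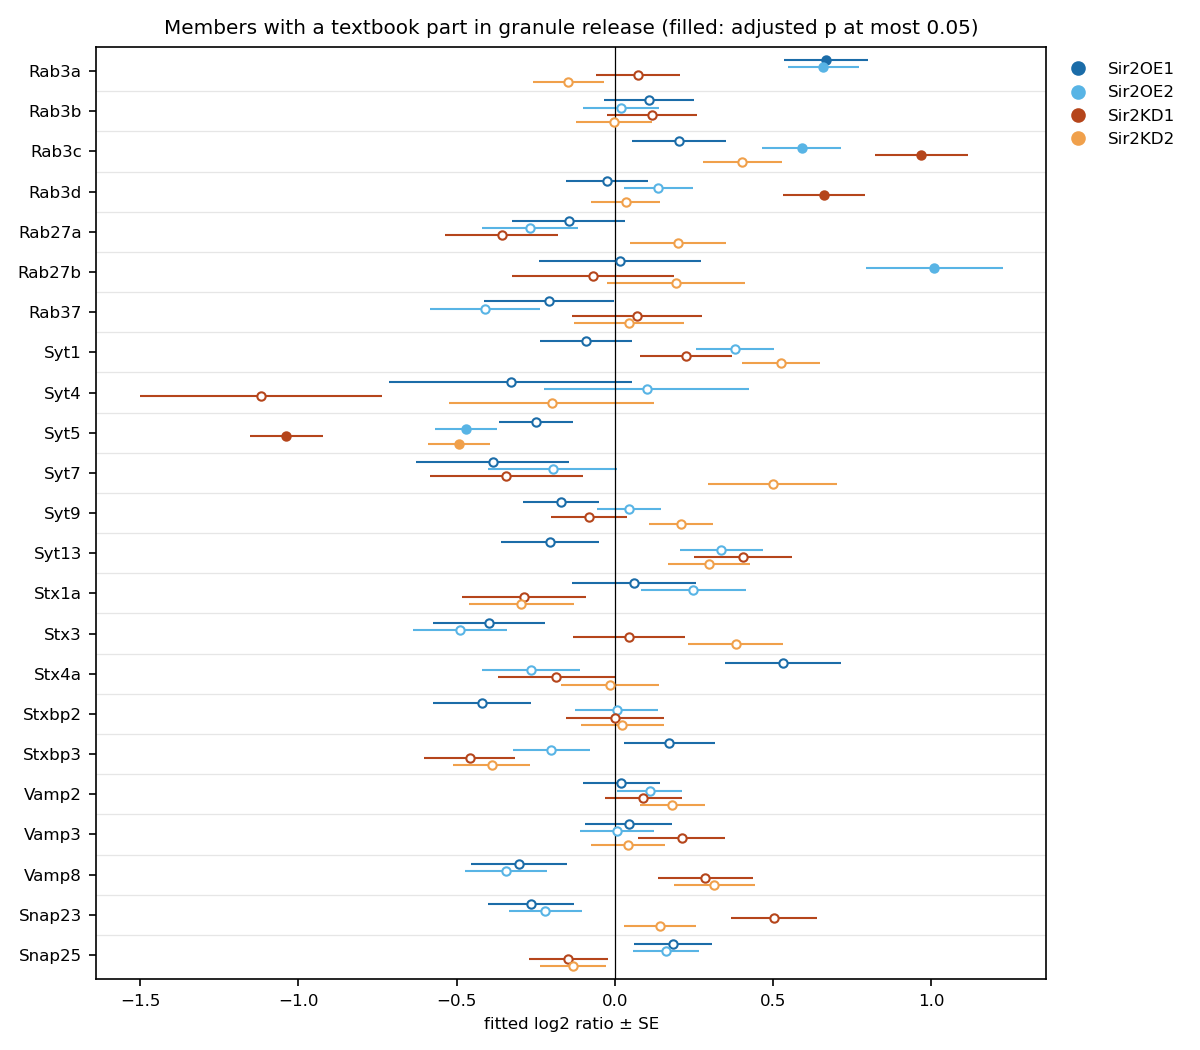
Fitted log2 ratio with its SE (x axis) in each of the 4 lines for members with a textbook part in insulin granule release (y axis). Filled points have an adjusted p of at most 0.05. Filled points belong to Rab3a, Rab3c, Rab3d, Rab27b and Syt5, while the core SNAREs Stx1a, Vamp2 and Snap25 have open points between −0.30 and 0.25.

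Of the 22 endosomal and recycling Rab probes, 2 were called in Sir2OE2 and 1 in Sir2KD1, all on the minus side. Rab17, an epithelial Rab of recycling endosomes and transcytosis, read −1.39, −0.95, −1.25 and −1.15 on the Sir2OE2 arrays. These lay below all other arrays, which ran from −0.67 to 0.28. The fitted value was −1.18 ± 0.15 (SE, 2.27-fold, adjusted p = 0.00153), and the call was kept whichever array was left out (highest adjusted p 0.0192). The other overexpressing line had −0.42 (adjusted p = 0.485), and the difference Sir2OE2 minus Sir2OE1 was −0.77 with an adjusted p of 0.319.

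Rab7, the Rab of late endosomes and lysosomes, read −0.64, −0.29 and −0.30 in Sir2OE1, −0.31, −0.42, −0.54 and −0.53 in Sir2OE2 and −0.50, −0.39 and −0.66 in Sir2KD1. The Sir2KD2 arrays read 0.01, −0.07, 0.13 and −0.02, above the 10 arrays of the other lines. Rab7 was called in Sir2OE2 (−0.45 ± 0.10 SE, 1.36-fold, adjusted p = 0.0464) and Sir2KD1 (−0.52 ± 0.12 SE, 1.43-fold, adjusted p = 0.0437), and was not called in Sir2OE1 (−0.42, adjusted p = 0.206). Both calls were kept only without Sir2OE1 slide 1 or slide 3, with adjusted p up to 0.215 and 0.178. The difference Sir2KD2 minus Sir2KD1 was 0.53 (adjusted p = 0.199).

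Rab5a, of early endosomes, had 0.01, −0.02, 0.04 and −0.03, and Rab11a, of recycling endosomes, had 0.21, 0.25, 0.13 and −0.03. Rab35, which returns cargo from endosomes to the surface, had −0.74 in Sir2OE2 with an adjusted p of 0.0792. The medians of the 22 probes were 0.03, 0.05, 0.04 and 0.01 in the 4 lines.

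Of the 15 ER and Golgi Rab probes, 1 was called in each line, on the minus side. It was Rab43 in the overexpressing lines and Rab33b in the knockdown lines. Rab43, which acts in transport through the Golgi, read −0.85, −1.22 and −0.78 in Sir2OE1 and −0.72, −0.80, −0.88 and −0.71 in Sir2OE2, below all 7 knockdown arrays, which ran from −0.43 to 0.31. Fitted values were −0.94 ± 0.17 (SE, 1.91-fold, adjusted p = 0.025) and −0.78 ± 0.14 (SE, 1.72-fold, adjusted p = 0.0128). The Sir2OE1 call was lost without any 1 of the Sir2OE1 arrays or Sir2OE2 slide 1 or 2 (adjusted p up to 0.188), and the Sir2OE2 call without any 1 of the Sir2OE2 arrays (adjusted p up to 0.0954). Its knockdown values were −0.18 (adjusted p = 0.675) and 0.00.

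Rab33b, a Golgi Rab that also binds the autophagy machinery, read −0.58, −0.57 and −0.47 in Sir2KD1 and −0.51, −0.43, −0.68 and −0.38 in Sir2KD2. The overexpression arrays ran from −0.35 to 0.07, above all of these. Fitted values were −0.53 ± 0.12 (SE, 1.45-fold, adjusted p = 0.0347) and −0.50 ± 0.10 (SE, 1.42-fold, adjusted p = 0.0396), with −0.05 and −0.17 in the overexpressing lines. The Sir2KD1 call was kept without any 1 array of Sir2OE1, Sir2OE2 slide 4, or Sir2KD2 slide 2 or 3, and lost without any of the other 8 arrays (adjusted p up to 0.235). The Sir2KD2 call was kept only without Sir2OE1 slide 1, Sir2OE1 slide 3 or Sir2OE2 slide 4 (adjusted p up to 0.182). Rab2a, which acts between ER and Golgi, had −0.07, 0.10, −0.09 and 0.15.

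None of the 7 probes for Rab effectors and regulators, the 4 for other Rabs or the single probe of Snap91, a clathrin assembly protein that is no SNARE, was called in a line. The rule also took in 4 transcripts that encode no Rab, Rab10os, Rab26os, Rab11fip4os2 and Rab5if. None was called, although Rab5if had 0.63 in Sir2OE1 with an adjusted p of 0.0542. The os symbols are antisense transcripts, and whether their probes read them apart from the partner gene depends on probe strand, for which the sources used here have no entry.

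Of the 6 member genes with several probes, Syt11 and Stxbp5 had 1 probe called and 1 not. Probes of Syt6, a calcium-binding synaptotagmin, read on opposite sides in Sir2KD1, −0.16 ± 0.27 (SE) and 0.91 ± 0.69 (SE), the second with single arrays from −1.47 to 2.42. Neither was called there. Under the other reading of the ratio, in which no sign is turned, the second Syt6 probe was the 1 member called in a line, at −1.96 in Sir2KD1 with an adjusted p of 0.0454. The probes of Rab11fip1, Vamp1 and Vamp5 were not called.

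The lines of a kind were next compared with each other, to ask whether a difference between them exceeded the spread between arrays. No member was called for Sir2OE2 minus Sir2OE1, where 0.323% of all probes were called by limma. An unadjusted p under 0.05 was found there for 10 of the 109 members and 1738 of all 23230 probes. No member was called for Sir2KD2 minus Sir2KD1 either, where 0.689% of all probes were called. In that comparison 10 of the 109 members and 2736 of all 23230 probes had an unadjusted p under 0.05. The 4 members called in Sir2OE2 alone (Rab17, Rab27b, Stx16 and Syt11) and the 2 called in Sir2KD1 alone (Rab3d and Stxbp5) are thus not shown to differ between the lines of their kind.

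The contrast of the mean of the overexpressing lines with the mean of the knockdown lines asked which members separate the kinds. It compares ratios against different controls, and its size, sign and calls all assume that both kinds carry the same channel on top. With the knockdown ratios given the other sign, 12 members were called in place of 5, Rab31 read −0.046 and Snap23 0.0799. The share of all probes called with that sign is not given here, so the rise is not a result about the members. In the fit described, 5 members were called, 2 plus and 3 minus, and 23 of the 109 had an unadjusted p under 0.05. Of all 23230 probes 2.66% were called (1.54% plus, 1.12% minus), and 3350 had an unadjusted p under 0.05. Rab3a and Rab43, described above, were called at 0.70 (adjusted p = 0.0125) and −0.77 (adjusted p = 0.025). The Rab3a call was lost without Sir2KD1 slide 1 (adjusted p = 0.0591). The Rab43 call was kept without Sir2OE1 slide 1, Sir2OE2 slide 1, any 1 of the Sir2KD1 arrays or Sir2KD2 slide 3 and lost without any of the other 8 arrays (adjusted p up to 0.0712).

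Rab31, a Rab of traffic between the trans-Golgi network and endosomes, gave the largest called contrast, 1.04 ± 0.17 (SE, adjusted p = 0.00891). Its arrays read 0.74, −0.30 and 0.50 in Sir2OE1, 0.34, 0.84, 0.87 and 0.55 in Sir2OE2, −0.41, −0.65 and −0.49 in Sir2KD1 and −0.59, −0.61, −0.56 and −0.56 in Sir2KD2. Apart from Sir2OE1 slide 2, the overexpression arrays were plus, and all 7 knockdown arrays were minus. No single line was called for Rab31 (fitted values 0.35, 0.65, −0.51 and −0.58, lowest adjusted p 0.0583). The contrast was called whichever array was left out (highest adjusted p 0.043).

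Snap23, the widely expressed relative of Snap25, and Vamp8, a VAMP of endosomes and of some secretory granules, made up the other 2 calls. Snap23 read 0.02, −0.48 and −0.36 in Sir2OE1, −0.14, −0.48, −0.14 and −0.11 in Sir2OE2, 0.43, 0.53 and 0.55 in Sir2KD1 and 0.13, 0.21, 0.22 and 0.01 in Sir2KD2, with a contrast of −0.56 ± 0.12 (SE, adjusted p = 0.0408). Vamp8 read −0.20, −0.42 and −0.31, then −0.34, −0.40, 0.02 and −0.66, then 0.52, 0.18 and 0.15, then 0.28, 0.16, 0.51 and 0.30 in the same order of lines. The contrast of Vamp8 was −0.62 ± 0.14 (SE, adjusted p = 0.0443). Its overexpression and knockdown arrays did not overlap, but how many of all probes separate so was not counted. The Snap23 call was kept only without Sir2OE1 slide 1 (adjusted p up to 0.123) and the Vamp8 call only without Sir2OE2 slide 3 (adjusted p up to 0.153).

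With the line rather than the array as the replicate, no member and 0 of all probes were called for this contrast by limma, although 12 members and 1822 probes had an unadjusted p under 0.05. A random block for the line (correlation within lines 0.0194) left 4 members called. The share of all probes called with that block is not given here.

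**Figure D4:**
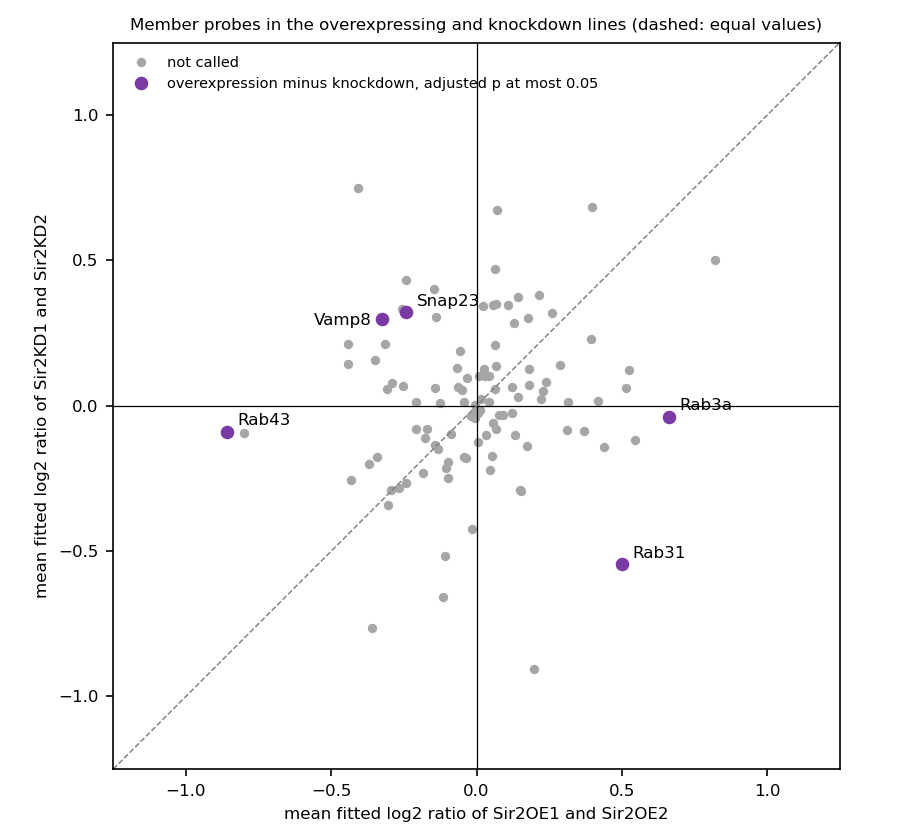
Mean fitted log2 ratio of Sir2OE1 and Sir2OE2 (x axis) against that of Sir2KD1 and Sir2KD2 (y axis) for the 109 member probes; the dashed line marks equal values, and purple points have an adjusted p of at most 0.05 for overexpression minus knockdown. Rab31, Snap23 and Vamp8 lie on opposite sides of 0 in the kinds, whereas Rab3a and Rab43 lie far from 0 only along the x axis.

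Other genes of the same machinery, such as complexins, the exocyst, NSF with its partners and Rab regulators, were measured by 75 probes for 67 genes. In Sir2OE1, Sir2OE2, Sir2KD1 and Sir2KD2, 0%, 2.67%, 1.33% and 0% of these probes were called. Of all probes 1.06%, 2.81%, 3.59% and 1.34% were called in that order. For overexpression minus knockdown the share was 2.67%, against 2.66% of all probes. In Sir2OE1, 0 were called. In Sir2OE2, Napb, which helps to take SNARE complexes apart, was on the plus side with 1 probe (18068, 0.76, adjusted p = 0.00983) and not called with the other (17491, 0.08, adjusted p = 0.905). Cplx2, a complexin that holds assembled complexes ready, was on the minus side there (−0.56, adjusted p = 0.0324). In Sir2KD1, Sv2c, a glycoprotein of synaptic vesicles, was on the minus side (−1.68, adjusted p = 0.00308), and in Sir2KD2, 0 were called. For overexpression minus knockdown, Sv2c was on the plus side (1.55, adjusted p = 0.00344) and Bet1, a SNARE of ER to Golgi transport, on the minus side (−0.61, adjusted p = 0.0294). None of these genes was called in more than 1 line.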

How the data were processed

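Two-channel arrays of 4 MIN6 lines were analysed (14 arrays). The authors deposited log2 channel ratios. The values themselves show that each probe was centred within each kind of perturbation. Array software, background correction and normalization: not given in the sources used here. Without intensities the signal over background cannot be judged, and precision is limited by how many arrays a line has. Of 23232 probes, 16885 had 1 gene symbol in the platform annotation, 143 had several and 6204 were not listed; 16205 were matched by Entrez identifier and 0 symbols changed. Slides were assigned to lines by their titles, and the line's channel was taken from the labelled sources. Ratios were turned and fitted over all 14 arrays with limma 3.58.1 in R 4.3.3 (lmFit, eBayes), with a coefficient per line and a channel term per kind. Probes needed values on at least 2 arrays of each line (23230 did), and p-values were adjusted by Benjamini-Hochberg at 0.05. The fit was tested on simulated data. Pairing of arrays of different lines by slide number was not seen: 0 of 19 same-numbered pairs had a correlation of deviations above 0.1 (−0.377 to 0.0741). Within a kind, most same-numbered arrays shared a channel and entered the centring sums, which pushes them apart. Pairing within a kind could therefore not be judged.

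The members and lists were chosen with earlier results of these data known. Named are members called in a line or between kinds, members with a textbook part in granule release, and genes whose probes disagree. Alternatives tried were the channel term, the reading of the ratio, the slide number, array scale, missing values, shared ratios, a robust prior and the leaving out of arrays.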

Additional observations from a re-analysis of the deposited data

Results flagged for a closer look

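In groups of 4 arrays, a single array was checked for a gap to the nearest other array that is large against the range of the group. The check covered 31 probes, those called in a line or between kinds and those with a textbook part in granule release. Other probes named in the report were not checked. Of 62 such groups, in Sir2OE2 and Sir2KD2, 4 were picked out, where chance picks about 1 in 20, here 3.1. The Rab37 probe read −1.07 on Sir2OE2 slide 4 and −0.21 to −0.18 on the other arrays of that line; this probe shares its set of ratios with other probes. Snap23 read −0.48 on Sir2OE2 slide 2 and −0.14 to −0.11 on the others. Stx1a read 0.68 on Sir2OE2 slide 4 and 0.04 to 0.15 on the others. Syt5 read −0.60 on Sir2KD2 slide 1 and −0.46 to −0.45 on the others, all on the same side.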

How the results depend on the processing

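Member calls below are given in the order Sir2OE1, Sir2OE2, Sir2KD1, Sir2KD2 and overexpression minus knockdown, where the fit described gave 2, 9, 6, 2 and 5. The shares of all probes called under each setting are not given beside these counts. A change in a count can therefore not be told from a change over all probes. With no channel term the member calls were 5, 13, 11, 4 and 11, with 3 for Sir2KD2 minus Sir2KD1. With 1 channel term for both kinds they were 3, 13, 8, 3 and 11. With arrays centred and scaled they were 3, 12, 2, 1 and 5. The slide number as a replicate block gave 0, 3, 1, 0 and 0. Pairing by number was not seen (1 of 14 arrays correlated best with its own number), but the centring keeps it from being judged within a kind. Leaving out both arrays outside the centring sums, an alternative chosen after seeing the data, gave 0, 7, 1, 0 and 1. Complete probes, no filter, and leaving out shared ratios gave the counts of the fit described, and a robust prior differed by 1 in Sir2OE2. Leaving out 1 array at a time gave 0 to 2 in Sir2OE1, 2 to 10 in Sir2OE2, 2 to 7 in Sir2KD1, 0 to 2 in Sir2KD2, 0 for Sir2OE2 minus Sir2OE1, 0 to 2 for Sir2KD2 minus Sir2KD1 and 2 to 5 for overexpression minus knockdown. Line as the replicate gave 0 for the last. Knockdown ratios with the other sign gave 12, with Rab31 at −0.046 and Snap23 at 0.0799. Values read as line over control already gave 0, 0, 1, 0 and 0, with 1 for Sir2KD2 minus Sir2KD1, and these values changed sign: in Sir2OE2 Rab27b to −0.14, Stx16 to 0.030, Rab43 to 0.0185, Rab7 to 0.084, Rab17 to 0.014 and Rab3a to −0.032; in Sir2KD1 Syt5 to 0.33, Rab7 to 0.18, Rab33b to 0.15, Rab3d to −0.29, Rab3c to −0.27 and Stxbp5 to −0.23; Rab33b in Sir2KD2 to 0.028; and for overexpression minus knockdown Rab31 to −0.15 and Snap23 to 0.028. The causes were not tested beyond what the settings themselves change.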
